A study of Mus musculus with 8 samples.

Results

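OT-I CD8+ T cells primed by migratory CD103+ dendritic cells (CD103 DC) were compared with OT-I cells primed by CD8a+ dendritic cells that reside in the lymph node (CD8a DC). The libraries, named here by DC and replicate number (CD103-1, CD8a-1 and so on), were chosen by their sample titles and by the DC partner in the labels, 3 with CD103 DC and 3 with CD8a DC, which makes 6 of the 8 libraries of the series. OT-I cells are mouse T cells with a transgenic receptor for an ovalbumin peptide, here on the C57BL/6 strain. In every group the T cells spent 72 hours in culture with DC that carried antigen, and the cells that had divided were sorted for RNA sequencing. The other 2 libraries, numbered 2 and 3, came from T cells cultured with migratory CD11b+ DC (CD11b DC). They entered the fit to share its estimate of spread, and their values are given as levels only. The labels do not say where the DC or the antigen came from or whether each library had a culture or an animal of its own, so the spread that the p-values are set against is one between samples and may be technical.

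Both DC types belong to the cDC1 lineage, which is known for presenting antigen from dead cells or tumours on MHC class I to CD8+ T cells. CD103 DC carry antigen from a tissue to its draining lymph node, whereas CD8a DC stay in the lymph node and take antigen up there. During priming a DC delivers antigen, costimulation and cytokines, and it can also imprint where the T cell will go. Retinoic acid from gut-draining DC is the textbook example, since it induces the gut homing receptors alpha4beta7 and CCR9, while entry into skin relies on selectin ligands and CCR4.

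Each library held 16293042 to 21973391 reads assigned to genes. Of 18971 genes tested, 273 passed at an adjusted p under 0.05 (limma-trend on log2(normalized count + 1), Benjamini-Hochberg), which is 1.44% of them. With CD103 DC 169 genes rose (0.891%) and 104 fell (0.548%). Of all genes tested 9835 had a log2 fold change above 0 and 9013 below 0, and these shares are the background for the list counts below. The lists share some members, which are counted in each list. Rara, Rxra, Hic1, Tox, Itga4, Ccr9, S1pr4, Il6ra and Cdkn1a are among them. Fold changes below are CD103 DC over CD8a DC on the log2(normalized count + 1) scale, and levels are CPM, the number of reads a gene had among 1000000 reads of its library. In low genes the added 1 draws a fold change towards 0, but a library near 0 weighs heavily in a mean of log values, so that a printed fold change can also exceed the ratio of the mean levels. Of the genes that rose 114 changed at least 2-fold, and of those that fell 39. For each of the 273 genes the 3 CD103 DC libraries lay on one side of the 3 CD8a DC libraries without overlap, as did 16.5% of all genes tested (8.77% higher and 7.72% lower). Library CD8a-2 lay apart from the other 7 libraries along the first principal component, which held 25.23% of the variance. Reads of the mitochondrial chromosome made up 6.69% to 7.72% in CD103 DC libraries, against 9.12% to 11.8% in CD8a DC libraries (7.02% to 7.20% in CD11b DC libraries), and 12 genes set down as defining DC had summed levels of 317, 313 and 349 CPM with CD103 DC, 128, 184 and 82.1 CPM with CD8a DC, and 436 and 295 CPM with CD11b DC. Ccl22 and Cd83 made up most of this DC sum. Of the 12 genes 9 had a log2 fold change above 0 and 3 below 0. The part of the mitochondrial share or of this sum in the results was not tested. Of the 273 genes 241 were among the 254 (1.7%; 0.951% higher and 0.75% lower) that a count test on the recovered reads called (edgeR quasi-likelihood), and 270 among the 831 (5.45%; 2.98% higher and 2.47% lower) of DESeq2. The authors' deposited table, at an adjusted p under 0.05, shared 242 of them and held 743 in all (5.92%; 3.18% higher and 2.74% lower). The count depended on single libraries. It was 51, 50 and 47 without CD103-1, CD103-2 and CD103-3, 138, 290 and 480 without CD8a-1, CD8a-2 and CD8a-3, and 157 and 156 without CD11b-2 and CD11b-3. The RNA came from bulk sorted cells, in which fewer cells of a type and less RNA per cell cannot be told apart. Every gene named below as risen or fallen kept its direction in these 8 fits, and those that also kept the call in all 8 are pointed out. This does not cover the risen genes named only for a promoter motif, which were not followed through these fits.

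**Figure D1:**
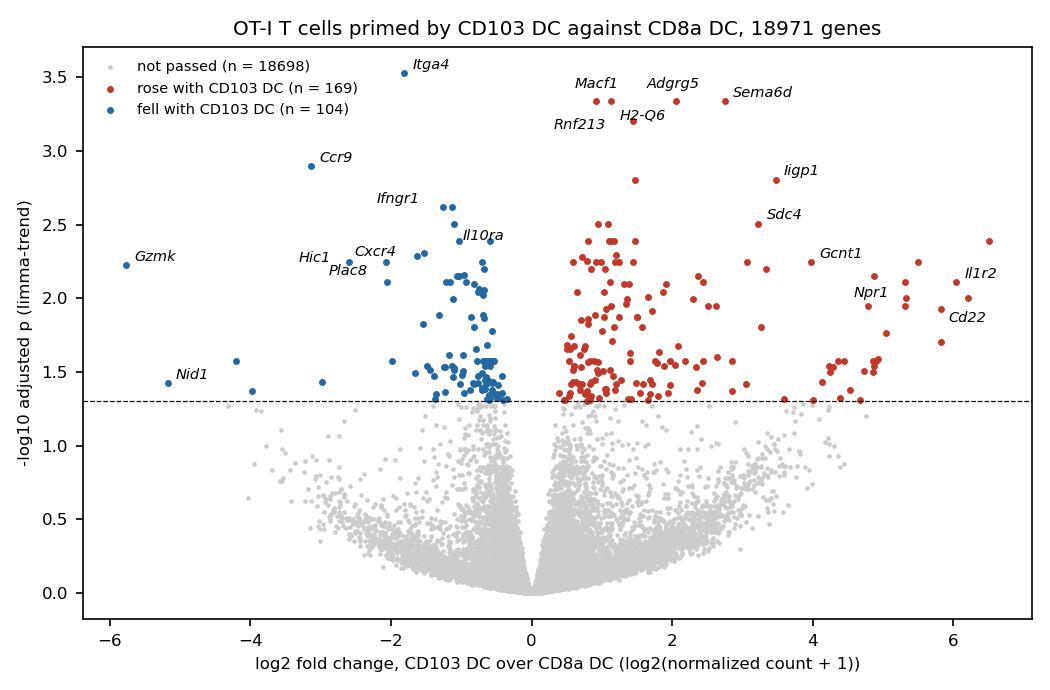
Each point is 1 of 18971 genes, with the log2 fold change of CD103 DC over CD8a DC on the x axis and the -log10 adjusted p (limma-trend) on the y axis; the dashed line marks an adjusted p of 0.05. The 169 genes that rose with CD103 DC are red, the 104 that fell are blue and the rest grey, with Itga4 and Sema6d among the highest points on either side.

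Of the functional lists, the interferon gamma response held the most risen genes, and the promoters of several interferon genes are shown first because several hold the letters of an element that interferon-activated factors are known to bind; a match describes the sequence and is not a measured site. Windows from 250 bases before to 50 bases after the start site were taken from RefSeq (build GRCm38.p6) and searched on both strands for GAAANNGAAA, the core of the interferon-stimulated response element (ISRE), and for TTCNNNGAA, the core of the gamma-activated site (GAS). A stretch can hold part of both, and each motif was counted on its own. Among the 17 interferon genes that rose, 11 had a window, and 9 of these held the ISRE core. Among the interferon genes that did not pass, 38.5% of the 13 interferon gamma genes and 50% of the 32 type I genes with a window held it too. The 5 windows below were chosen among the 9 that held the ISRE core. They are the 4 of these with the smallest adjusted p and that of Isg15, where 3 hits overlap. Cd274 and Ifi47 had a window without the ISRE core and are not shown, although Cd274 had a smaller adjusted p than Gbp7. Sequences run 5′ to 3′ in the direction of the gene, and capitals mark the ISRE core or its reverse complement.
Slfn8 (chr11:83020673-83020972, minus strand): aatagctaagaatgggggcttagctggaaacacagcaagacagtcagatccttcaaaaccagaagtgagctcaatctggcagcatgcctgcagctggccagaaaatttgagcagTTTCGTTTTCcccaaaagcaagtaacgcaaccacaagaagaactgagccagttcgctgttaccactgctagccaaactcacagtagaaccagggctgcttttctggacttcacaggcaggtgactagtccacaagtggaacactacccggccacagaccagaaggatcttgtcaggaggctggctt
Igtp (chr11:58199306-58199605, plus strand): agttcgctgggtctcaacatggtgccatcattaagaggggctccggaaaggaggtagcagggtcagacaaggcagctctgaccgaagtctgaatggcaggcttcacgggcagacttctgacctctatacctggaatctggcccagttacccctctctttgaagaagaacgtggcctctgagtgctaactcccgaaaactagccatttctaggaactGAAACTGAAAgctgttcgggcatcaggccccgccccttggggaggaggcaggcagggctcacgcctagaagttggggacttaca
Gbp7 (chr3:142530086-142530385, plus strand): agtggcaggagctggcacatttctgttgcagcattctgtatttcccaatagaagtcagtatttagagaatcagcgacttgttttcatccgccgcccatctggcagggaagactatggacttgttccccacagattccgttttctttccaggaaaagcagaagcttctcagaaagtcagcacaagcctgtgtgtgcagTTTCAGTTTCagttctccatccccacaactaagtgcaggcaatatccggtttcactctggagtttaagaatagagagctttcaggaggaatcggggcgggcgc
Irgm2 (chr11:58214727-58215026, plus strand): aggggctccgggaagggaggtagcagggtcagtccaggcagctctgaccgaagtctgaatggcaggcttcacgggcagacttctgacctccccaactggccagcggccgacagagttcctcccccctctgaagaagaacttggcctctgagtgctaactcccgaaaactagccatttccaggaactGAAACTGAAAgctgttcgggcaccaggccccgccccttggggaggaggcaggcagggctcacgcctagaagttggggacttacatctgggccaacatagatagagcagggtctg
Isg15 (chr4:156200769-156201068, minus strand): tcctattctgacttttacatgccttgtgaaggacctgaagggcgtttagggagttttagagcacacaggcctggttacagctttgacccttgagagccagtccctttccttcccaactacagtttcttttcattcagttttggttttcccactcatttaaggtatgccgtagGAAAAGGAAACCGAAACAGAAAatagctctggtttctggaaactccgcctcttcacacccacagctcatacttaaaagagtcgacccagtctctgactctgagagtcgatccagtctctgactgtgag
In these windows the first hit started 136 bases before the start site in Slfn8, 34 bases before it in Igtp, 53 in Gbp7, 64 in Irgm2 and 78 in Isg15. Igtp and Irgm2, which neighbour each other, carried the same capital letters. Over all genes, the ISRE core was present in 13.4% of the 127 risen genes with a window and in 2.53% of the 79 fallen genes with one, against 3.81% of the 11381 tested genes with a window. The GAS core was present in 12.6%, 2.53% and 8.44% of the same sets. Of the 17 risen genes with the ISRE core 8 were outside the interferon lists. They were Gbp2b, a guanylate binding protein, Gm12185, a predicted gene whose span overlaps Tgtp1, Jaml, an adhesion receptor, Bcor, a transcriptional corepressor, Plxnc1, a semaphorin receptor, Ctso, D230017M19Rik and Gm1966, and they were named after their motifs were seen. None of the 6 risen MHC class I genes held either core in this window, while 4 of the 13 class I genes with a window that did not pass held the ISRE core, which says of the risen genes only that these letters are absent there.

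Most interferon response genes had higher levels with CD103 DC, and part of them passed the test. Of 30 interferon gamma response genes tested 13 rose and 0 fell, and 27 had a log2 fold change above 0 (median 0.79, against 0.02 for all genes tested). Among the 47 genes of the type I interferon response that were tested 4 rose, 0 fell and 41 were above 0 (median 0.58). Several of the risen genes encode GTPases that attack pathogen vacuoles. Iigp1, one of them, had 37.2, 31.4 and 29.8 CPM with CD103 DC, against 4.11, 1.14 and 4.51 CPM with CD8a DC (log2 fold change 3.47, SE 0.41, adjusted p = 0.00156). Without CD8a-2 this difference was 2.87. Igtp had 306, 343 and 372 CPM with CD103 DC and 215, 155 and 153 CPM with CD8a DC (log2 fold change 0.92, SE 0.14, adjusted p = 0.00569). Gbp7, a guanylate binding protein, had 143, 144 and 161 CPM with CD103 DC and 77.5, 80.6 and 51.9 CPM with CD8a DC (log2 fold change 1.06, SE 0.18, adjusted p = 0.0118). Irgm2, Gbp2, Gbp4, Gbp9, Tgtp1, Tgtp2 and Ifi47, further GTPases of these families, rose with log2 fold changes of 0.61 to 1.27.

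An inhibitory ligand and a ubiquitin-like modifier were among the other risen genes. Cd274, which encodes the inhibitory ligand PD-L1, had 120, 118 and 113 CPM with CD103 DC and 42.2, 59.2 and 42.5 CPM with CD8a DC (log2 fold change 1.24, SE 0.18, adjusted p = 0.00569). The groups were well apart for Cd274; DC also express this gene. Isg15, a ubiquitin-like modifier, had 8.72, 7.43 and 6.95 CPM with CD103 DC and 1.78, 1.41 and 0.214 CPM with CD8a DC (log2 fold change 3.05, SE 0.67, adjusted p = 0.0381), and 2.17 without CD8a-3. Slfn8 (log2 fold change 1.12), the nucleic acid sensor Zbp1 (1.11) and the antiviral enzyme Oas3 (0.78) were the other type I genes that rose. By edgeR the calls of Tgtp2 (adjusted p = 0.0521) and Oas3 (adjusted p = 0.0649) were lost.

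Of the interferon calls, those of Iigp1, Gbp4, Nlrc5 and Slfn8 held in each of the 8 fits that left out a library. Of the interferon gamma genes 4, 5 and 4 rose with CD103-1, CD103-2 and CD103-3 left out in turn, 8 rose with CD8a-1 left out and 14 with CD8a-2 left out. Of the type I genes 1 rose without each of the CD103 DC and CD11b DC libraries, and 8 rose without CD8a-2. With scaling by library total 7 type I genes rose, and in a fit of only the 6 libraries of both groups 2 rose. The spans of Gbp4 and Gbp9, of Igtp and Irgm2, and of Tgtp1 and a predicted gene overlap, and several of these genes are near copies of each other, so their reads may be divided among them. In the CD11b DC libraries Iigp1 stood at 67.0 and 99.4 CPM, above all 6 other libraries.

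**Figure D2:**
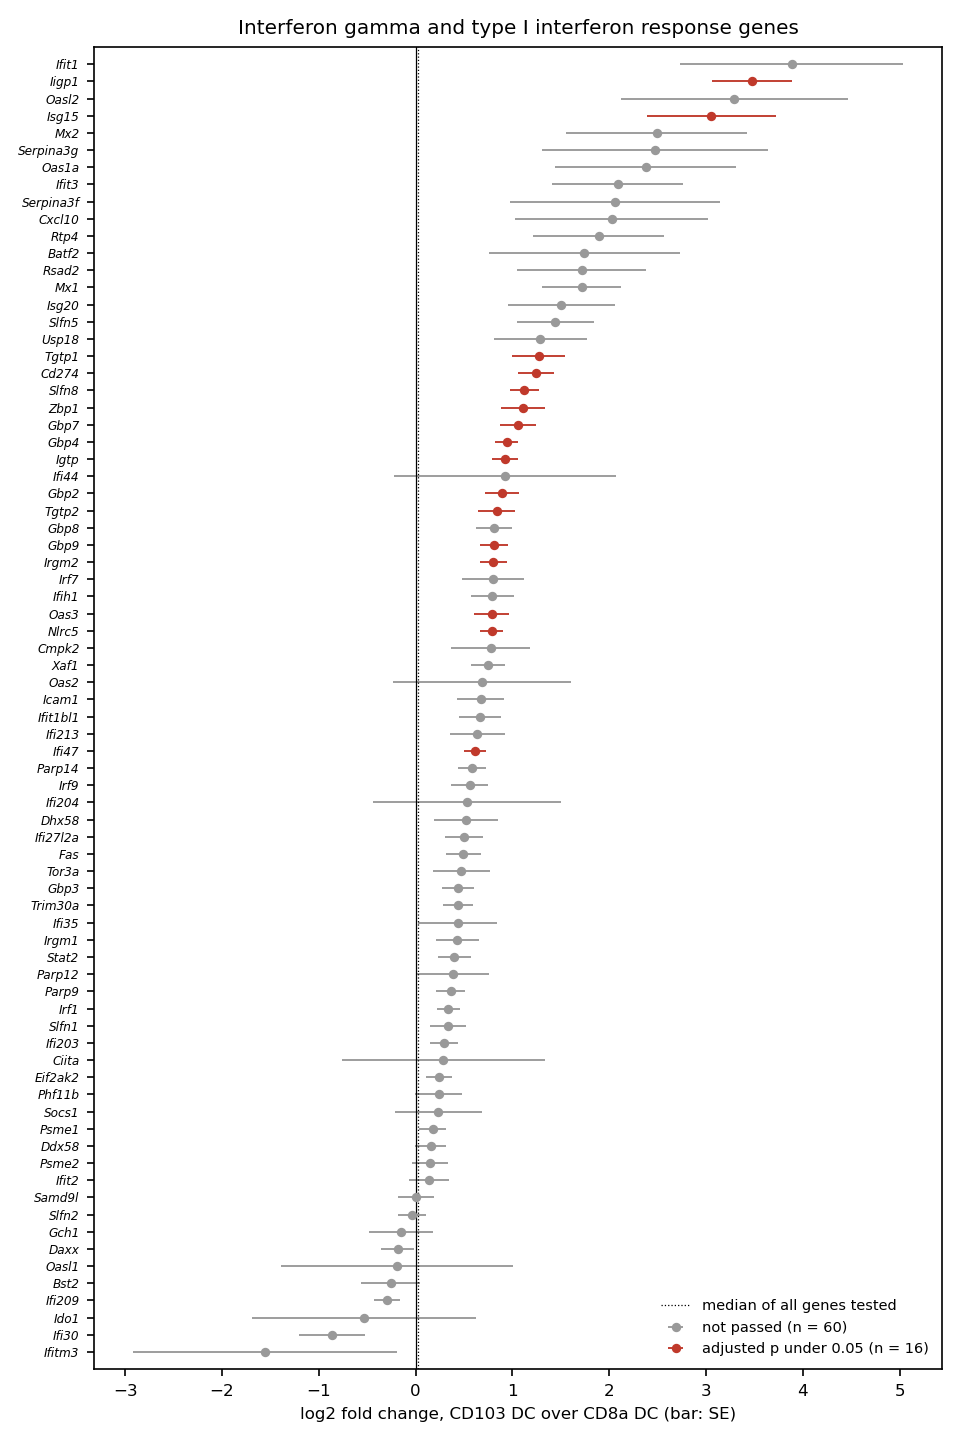
The x axis gives the log2 fold change of CD103 DC over CD8a DC with its SE (bars) for 76 of the 77 tested genes of the type I and gamma interferon responses, 1 gene a row. The 16 genes shown that passed are red and all lie right of 0; grey genes did not pass, and many of the grey genes with large changes, such as Ifit1, have wide bars.

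The receptor side of the same pathway moved the other way in 1 gene. Ifngr1 (ENSMUSG00000020009; GRCm38 chromosome 10, 19591949 to 19610229), the ligand-binding chain of the interferon gamma receptor, had 243, 226 and 175 CPM with CD103 DC, against 603, 507 and 384 CPM with CD8a DC. All CD103 DC libraries lay below all CD8a DC libraries, and the 2 CD11b DC libraries, at 511 and 517 CPM, lay in the range of the CD8a DC group. It fell by 1.26 in log2 (SE 0.16, adjusted p = 0.00241), a call that held without each library in turn. Ifng itself, the cytokine, was close to the floor, with 2.82, 2.82 and 2.63 CPM with CD103 DC and 0.120, 0 and 1.81 CPM with CD8a DC, and did not pass (log2 fold change 3.42, SE 1.16, adjusted p = 0.201). Of the 24 receptor, JAK, STAT and IRF genes tested 1 rose, Cish, and 1 fell, Ifngr1, against 0.891% and 0.548% of all genes tested. The Cish call was lost with any 1 of the CD103 DC libraries left out. With CD8a-2 left out 2 of these genes rose, and with CD8a-3 left out 3 rose and 3 fell.

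Genes of MHC class I presentation also rose in part. Of 23 class I presentation genes tested 6 rose and 0 fell, and 21 were above 0 (median 0.37). H2-K1, a classical class I heavy chain, had 1844, 1931 and 2018 CPM with CD103 DC and 1194, 1337 and 1159 CPM with CD8a DC (log2 fold change 0.60, SE 0.09, adjusted p = 0.00569). H2-Q6 (ENSMUSG00000073409; chromosome 17, 35424850 to 35430055), a nonclassical heavy chain, had 187, 200 and 195 CPM with CD103 DC and 88.1, 88.7 and 78.7 CPM with CD8a DC (log2 fold change 1.13, SE 0.11, adjusted p = 0.000456), and kept its call without each library. Its neighbours H2-Q4 and H2-Q7 rose with log2 fold changes of 0.98 and 0.74; these genes are near copies, so reads may be shared among them. Tap1, a subunit of the peptide transporter, rose by 0.56. H2-M2 had 8.82, 12.6 and 9.14 CPM with CD103 DC and 1.84, 0 and 0 CPM with CD8a DC, and its log2 fold change of 5.83 was 7.56 without CD8a-1 and 4.97 without CD8a-2 or CD8a-3. The call of H2-M2 was not shared by edgeR (log2 fold change 4.06, adjusted p = 0.0926) or DESeq2 (adjusted p = 0.211). Nlrc5, the transactivator of class I genes, had 256, 268 and 323 CPM with CD103 DC, against 159, 151 and 159 CPM with CD8a DC (log2 fold change 0.78, SE 0.11, adjusted p = 0.00559). The class I count was 2, 3 and 2 without CD103-1, CD103-2 and CD103-3, 4 without CD8a-1 and 9 without CD8a-2.

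Homing receptors differed in both directions: Itga4, Ccr9, Gpr15 and Cxcr4 were lower with CD103 DC, and Ccr4 and 3 enzymes of selectin ligand synthesis were higher. Of 39 homing and adhesion genes tested 4 rose and 8 fell (median log2 fold change 0.15), against background shares of 0.891% and 0.548%. Itga4 (ENSMUSG00000027009; chromosome 2, 79255426 to 79333123), the alpha4 integrin chain, had 151, 135 and 141 CPM with CD103 DC, against 614, 431 and 421 CPM with CD8a DC. The CD103 DC values lay close together, and each CD8a DC value, like the CD11b DC values of 659 and 457 CPM, lay far above them. It had the smallest adjusted p of all genes (0.000295; it fell by 1.82 in log2, SE 0.16). Itgb7, which encodes the beta7 partner of alpha4 in the gut homing integrin, had 150, 154 and 166 CPM with CD103 DC and 215, 203 and 164 CPM with CD8a DC, so that the groups overlapped, and did not pass (log2 fold change -0.36, adjusted p = 0.216).

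Ccr9 (ENSMUSG00000029530; chromosome 9, 123678439 to 123784330), the receptor for the small intestinal chemokine CCL25, had 7.15, 6.91 and 13.01 CPM with CD103 DC, against 95.4, 101 and 41.1 CPM with CD8a DC (fell by 3.14 in log2, SE 0.36, adjusted p = 0.00127). Its lowest CD8a DC library was CD8a-3, still over 3 times the highest CD103 DC library. The span of Ccr9 overlaps Lztfl1 on the other strand, which had a log2 fold change of -0.84 and did not pass. Gpr15, a receptor for homing to the large intestine, had 27.1, 25.2 and 18.3 CPM with CD103 DC and 58.2, 39.5 and 40.3 CPM with CD8a DC (fell by 1.02, SE 0.22, adjusted p = 0.0381). Cxcr4, which retains cells in bone marrow, had 21.9, 23.9 and 22.8 CPM with CD103 DC and 89.2, 47.1 and 75.4 CPM with CD8a DC (fell by 1.63, SE 0.23, adjusted p = 0.00516). S1pr4, a sphingosine 1-phosphate receptor, Itga6 and Itgb3, integrin chains, and Selplg, on which the P-selectin ligand is built, fell by 0.64, 0.93, 0.84 and 0.55 in that order. Hic1, a transcriptional repressor induced by retinoic acid in T cells, had 3.19, 2.36 and 3.92 CPM with CD103 DC, against 10.6, 29.2 and 19.7 CPM with CD8a DC (fell by 2.60, SE 0.39, adjusted p = 0.00569). Rara and Rxra, which encode retinoid receptors, moved the other way, with log2 fold changes of 1.05 and 1.24; with Itga4, Ccr9 and Hic1 they were the 2 genes that rose and 3 that fell among 29 genes of the TGF-beta and retinoid response. Of that list 1 rose with CD103-2 or CD8a-1 left out and 0 with CD103-3 left out.

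Ccr4, the receptor for CCL17 and CCL22, had 41.0, 38.2 and 36.2 CPM with CD103 DC, against 6.87, 3.64 and 12.4 CPM with CD8a DC (log2 fold change 2.44, SE 0.39, adjusted p = 0.00772). Itgal, the alpha chain of the integrin LFA-1, had 802, 852 and 898 CPM with CD103 DC and 556, 624 and 554 CPM with CD8a DC (log2 fold change 0.50, SE 0.09, adjusted p = 0.0207). Its beta chain gene Itgb2 had 284, 311 and 307 CPM with CD103 DC and 308, 274 and 315 CPM with CD8a DC, with overlapping groups (log2 fold change -0.05, adjusted p = 0.893). Ly6a, the surface protein Sca-1, and Jaml rose by 1.44 and 1.58; Jaml was not called by edgeR (adjusted p = 0.057).

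Of 15 genes of selectin ligand synthesis 3 rose and 0 fell, although the median of the list was 0.00. Gcnt1, which builds the core 2 branch on which selectin ligands sit, had 26.2, 22.9 and 17.2 CPM with CD103 DC, against 0.613, 3.19 and 1.06 CPM with CD8a DC. Fut7, the fucosyltransferase that completes the ligand, had 9.13, 11.5 and 13.01 CPM with CD103 DC and 0.796, 0.818 and 1.81 CPM with CD8a DC. For both genes the CD11b DC libraries, at 0.906 and 0.765 CPM for Gcnt1 and 0.576 and 1.47 CPM for Fut7, were no higher than the highest CD8a DC library. The log2 fold changes were 3.97 for Gcnt1 (SE 0.60, adjusted p = 0.00569; 4.63 without CD8a-2) and 3.27 for Fut7 (SE 0.59, adjusted p = 0.0155). St6gal1, a sialyltransferase, rose by 1.07 but was not called by edgeR (adjusted p = 0.0674).

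The calls of Itga4, Ccr9, Cxcr4 and Hic1 held without each library in turn. Of the homing and adhesion genes 1, 0 and 1 rose and 4, 3 and 4 fell with CD103-1, CD103-2 and CD103-3 left out in turn, 2 rose and 4 fell with CD8a-1 left out, and 5 rose and 9 fell with either CD8a-2 or CD8a-3 left out. With either CD11b DC library left out, or in the fit of only 6 libraries, 3 rose and 4 fell, and with scaling by library total 4 rose and 5 fell. The selectin ligand enzymes passed in 0, 0 and 1 cases with CD103-1, CD103-2 and CD103-3 left out in turn and in 1 with CD8a-1 left out.

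**Figure D3:**
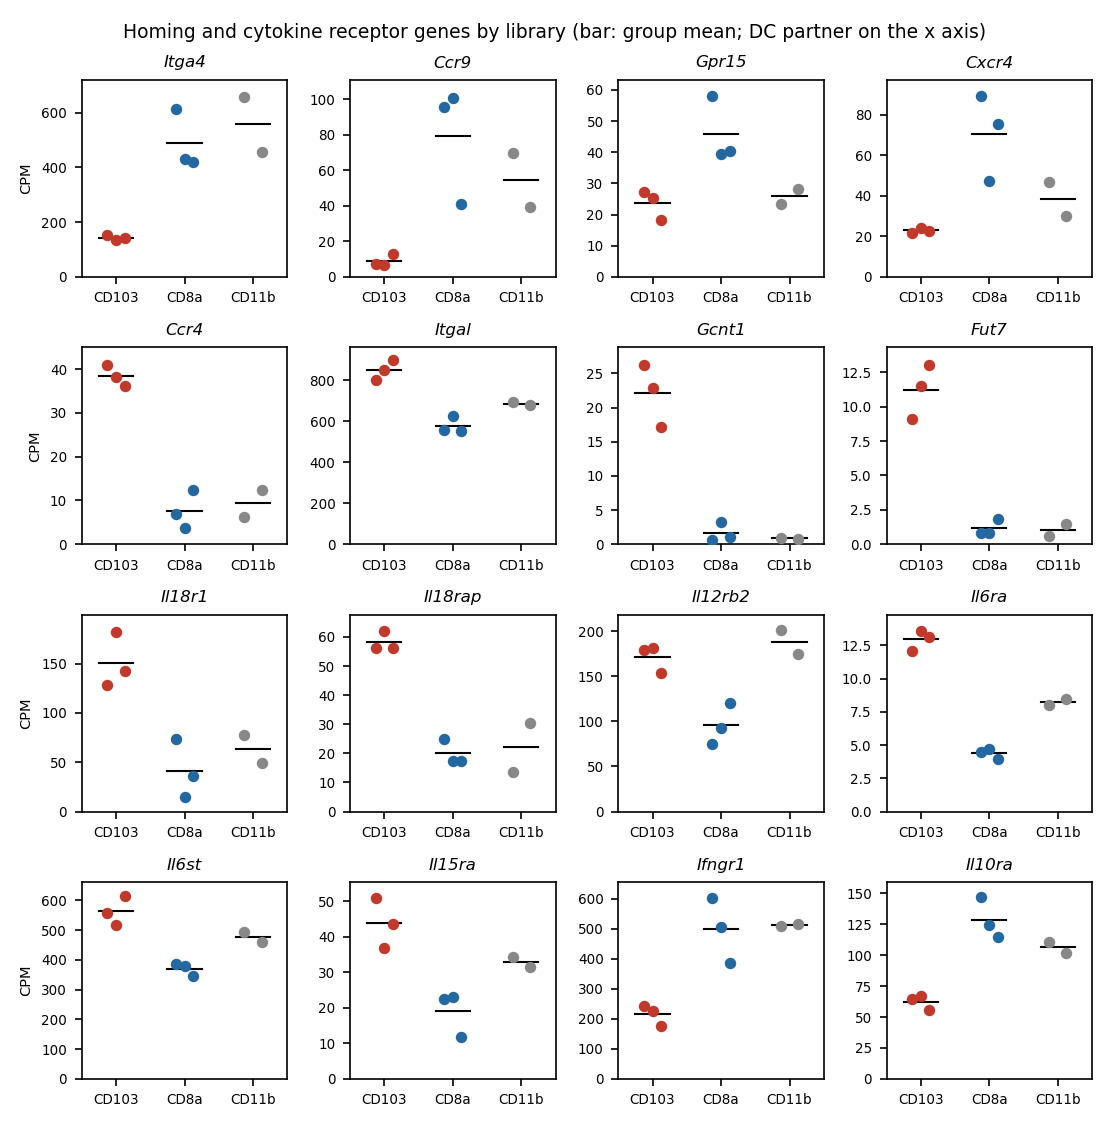
Each panel shows 1 gene, with CPM on the y axis from 0 and the DC partner on the x axis; points are libraries (3 CD103 DC, 3 CD8a DC and 2 CD11b DC) and bars are group means. Itga4, Ccr9, Gpr15, Cxcr4, Ifngr1 and Il10ra are lower in all CD103 DC libraries than in all CD8a DC libraries, and the other 10 genes are higher.

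Cytokine receptors were another list with many risen members. Of 28 cytokine receptor and STAT5 target genes tested 8 rose and 1 fell (median 0.46). The 2 chains of the interleukin 18 receptor rose together. Il18r1 (ENSMUSG00000026070; chromosome 1, 40465552 to 40500854), the binding chain, had 128, 182 and 143 CPM with CD103 DC, against 73.5, 14.6 and 35.6 CPM with CD8a DC (log2 fold change 2.09, SE 0.40, adjusted p = 0.021). Its CD8a DC libraries were widely spread, and without CD8a-2 the log2 fold change was 1.51. Il18rap, the signalling chain and its neighbour on chromosome 1, had 56.3, 62.0 and 56.3 CPM with CD103 DC and 25.0, 17.5 and 17.5 CPM with CD8a DC (log2 fold change 1.50, SE 0.27, adjusted p = 0.0133).

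Il12rb2, the signalling chain of the interleukin 12 receptor, had 179, 182 and 154 CPM with CD103 DC and 74.4, 92.8 and 120 CPM with CD8a DC (log2 fold change 0.81, SE 0.16, adjusted p = 0.0272). The gene overlaps the abundant Serbp1 on the other strand, which did not pass. Il12rb1, the other chain, had 22.7, 18.1 and 10.1 CPM with CD103 DC and 12.03, 5.60 and 13.9 CPM with CD8a DC and did not pass (adjusted p = 0.501). Il6ra had 12.1, 13.6 and 13.1 CPM with CD103 DC and 4.48, 4.73 and 3.98 CPM with CD8a DC (log2 fold change 1.49, SE 0.32, adjusted p = 0.0375), and its signalling partner Il6st (gp130) had 556, 517 and 616 CPM with CD103 DC and 385, 380 and 345 CPM with CD8a DC (log2 fold change 0.55, SE 0.10, adjusted p = 0.0222). Both chains of the interleukin 6 receptor were higher in all 3 CD103 DC libraries.

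Il15ra, which binds interleukin 15 with high affinity, had 50.7, 36.9 and 43.7 CPM with CD103 DC and 22.5, 23.2 and 11.8 CPM with CD8a DC (log2 fold change 1.19, SE 0.26, adjusted p = 0.0416). Il2ra (CD25), the high-affinity chain for interleukin 2, had 51.7, 26.4 and 29.9 CPM with CD103 DC and 7.37, 6.41 and 17.4 CPM with CD8a DC (log2 fold change 1.81, SE 0.35, adjusted p = 0.0232). The chains that interleukins 2 and 15 share did not pass: Il2rb had 661, 718 and 651 CPM with CD103 DC and 745, 649 and 791 CPM with CD8a DC (adjusted p = 0.4998), and Il2rg had 672, 641 and 675 CPM with CD103 DC and 520, 520 and 523 CPM with CD8a DC (adjusted p = 0.163). Cish and Pim2, which STAT5 induces, rose, Cish at 8.72, 16.4 and 12.8 CPM with CD103 DC and 1.35, 3.19 and 1.49 CPM with CD8a DC (log2 fold change 2.63, SE 0.45, adjusted p = 0.0112) and Pim2 by 0.72. Il2ra was counted with the T cell receptor activation genes and Cish with the receptor, JAK, STAT and IRF genes. Neither is among the risen members counted for the cytokine receptor and STAT5 target list. Il1r2, the decoy receptor of interleukin 1, had 3.24, 3.33 and 3.92 CPM with CD103 DC and 0 reads in all 3 CD8a DC libraries, which makes it at least 66.7-fold higher when 3 reads in all 3 of those libraries together are taken as the floor.

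Il10ra (ENSMUSG00000032089; chromosome 9, 45253837 to 45269149), the binding chain of the interleukin 10 receptor, was the member that fell. It had 64.3, 67.0 and 55.4 CPM with CD103 DC, against 147, 124 and 115 CPM with CD8a DC, with the CD11b DC libraries at 111 and 102 CPM (fell by 1.10 in log2, SE 0.14, adjusted p = 0.0031). This call held without each library in turn, whereas with any 1 of the CD103 DC libraries left out 0 of the 8 risen members passed. With CD8a-1 left out 3 rose, with CD8a-2 left out 9 rose, and with CD11b-2 or CD11b-3 left out 4 or 5 rose. In the fit of only 6 libraries 5 rose. Cd83, Flt3 and other genes of DC were also higher with CD103 DC, and DC express several of these receptors too, among them Il15ra and Il6st.

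Activation and costimulation genes were higher in part. Of 34 T cell receptor activation genes tested 3 rose (Cd69, Ier3 and Il2ra) and 1 fell, against 0.891% and 0.548% of all genes tested. In this list 29 were above 0 (median 0.40). Cd69, an early activation marker that also retains cells in lymph nodes, had 31.6, 37.6 and 41.9 CPM with CD103 DC and 13.6, 12.9 and 15.1 CPM with CD8a DC (log2 fold change 1.35, SE 0.23, adjusted p = 0.011). Ier3, an immediate early gene, rose by 1.41, and Dusp5, an ERK phosphatase, fell by 1.37 (adjusted p = 0.0484). The call of Dusp5 held in 0 of the 8 fits that left out a library (adjusted p 0.0532 to 0.206), and it was also lost with scaling by library total, with a trend along exon length removed from each library and with array weights. Among 29 costimulation and TNF family genes 3 rose and 0 fell (median 0.47). Tnfsf8, the CD30 ligand, had 121, 125 and 113 CPM with CD103 DC and 36.3, 53.3 and 36.4 CPM with CD8a DC (log2 fold change 1.47, SE 0.17, adjusted p = 0.00156), a call that held without each library. Cd2, the adhesion and costimulation receptor, had 291, 286 and 267 CPM with CD103 DC and 180, 158 and 183 CPM with CD8a DC (log2 fold change 0.64, SE 0.11, adjusted p = 0.00911), and Slamf1 rose by 0.95. With any 1 of the CD103 DC libraries left out 0 of the activation genes passed. With CD8a-1 left out 1 rose, and with CD8a-3 left out 11 rose. With either CD11b DC library left out 2 rose, with scaling by library total 5 rose and with array weights 7 rose. Of the costimulation genes 1 rose with any 1 of the CD103 DC libraries left out, 2 with CD8a-1 or either CD11b DC library left out, and 6 with CD8a-3 left out; 5 rose with scaling by library total.

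Of 26 T cell receptor complex and proximal signalling genes 1 rose, Pag1, an adaptor that holds the kinase Csk, with a log2 fold change of 0.64. Over all genes tested 0.891% rose, and of the 2307 with a mean of at least 100 CPM 52 rose. The call of Pag1 held in 1 of the 8 fits that left out a library. With the length trend removed 0 of these genes rose and 1 fell, and 0 passed in the fit of only 6 libraries. Among 22 inhibitory receptor genes and regulators of exhaustion, Tox and Cd22 rose and Ctla4 fell. Ctla4, which restrains CD28 signals, had 269, 312 and 264 CPM with CD103 DC, against 461, 490 and 368 CPM with CD8a DC (fell by 0.69, SE 0.12, adjusted p = 0.013). Tox, a chromatin factor of persistently stimulated T cells, had 150, 121 and 157 CPM with CD103 DC and 54.3, 66.7 and 86.1 CPM with CD8a DC (log2 fold change 1.01, SE 0.19, adjusted p = 0.0167). Pdcd1, which encodes PD-1, had 8.93, 8.24 and 9.24 CPM with CD103 DC and 9.45, 12.1 and 13.4 CPM with CD8a DC; the groups did not overlap, but it did not pass (adjusted p = 0.616). Neither Tox nor Ctla4 kept its call in all of the fits that left out 1 library. Of this list 1, 0 and 0 rose with CD103-1, CD103-2 and CD103-3 left out in turn, 1 rose with CD8a-1 left out and 3 with CD8a-2 or CD8a-3 left out, and 0 fell with any 1 of the CD103 DC libraries or CD8a-1 left out.

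Of 23 genes of killing tested 1 rose and 1 fell (median -0.06), against 0.891% and 0.548% of all genes tested. Gzmk, a granzyme of early memory-like CD8+ T cells, had 0.259, 0.153 and 0 CPM with CD103 DC, against 19.6, 4.73 and 5.31 CPM with CD8a DC. The log2 fold change was -5.77 (SE 0.88, adjusted p = 0.00591), -6.31 without CD103-1 and -5.03 without CD103-3, and -5.13 without CD8a-1, and the call held in all 8 fits. Tnfsf10 (TRAIL), a death ligand, had 71.6, 71.9 and 61.7 CPM with CD103 DC and 40.6, 25.5 and 32.1 CPM with CD8a DC (log2 fold change 1.03, SE 0.18, adjusted p = 0.0134). Gzmb, the main cytotoxic granzyme, had 9.29, 18.2 and 11.3 CPM with CD103 DC and 11.8, 14.3 and 37.7 CPM with CD8a DC (adjusted p = 0.514), and Prf1 (perforin) had 5.95, 6.56 and 4.92 CPM with CD103 DC and 8.72, 5.42 and 4.25 CPM with CD8a DC (adjusted p = 0.974); both overlapped between groups. Of 20 killer lectin and NK receptor genes 2 rose and 1 fell, against the same shares of all genes tested. Klrk1, the activating receptor NKG2D, and Slamf7, a SLAM family receptor, rose by 1.51 and 1.13 on the log2 scale. Sh2d2a, a T cell adaptor, fell by 0.56. With CD103-1, CD103-2 and CD103-3 left out in turn 0, 0 and 1 of the killer lectin list rose and 0 fell, and with CD8a-1 or CD8a-2 left out 0 fell, while with CD8a-3 left out 3 rose and 2 fell. Tnfsf10 lost its call with any 1 of the CD103 DC libraries left out, and with CD8a-2 left out, or with scaling by library total, 2 killing genes rose and with CD8a-3 left out 2 fell.

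Of 43 effector and memory transcription factors tested 6 rose and 3 fell, against 0.891% and 0.548% of all genes tested. Rora, a nuclear receptor, had 93.1, 84.7 and 79.3 CPM with CD103 DC and 39.2, 40.5 and 28.7 CPM with CD8a DC (log2 fold change 1.20, SE 0.17, adjusted p = 0.00508), and with Hic1 it kept its call without each library. Bhlhe40, a repressor that sustains cytokine production, had 83.8, 80.2 and 58.5 CPM with CD103 DC and 10.7, 20.7 and 40.7 CPM with CD8a DC (log2 fold change 1.75, SE 0.35, adjusted p = 0.0264). Gfi1, a repressor, had 22.03, 19.9 and 16.0 CPM with CD103 DC and 39.2, 38.8 and 41.6 CPM with CD8a DC (fell by 1.11, SE 0.19, adjusted p = 0.0101), and Ikzf3 (Aiolos) fell by 0.68. The fate regulators Tbx21 (T-bet), Eomes and Tcf7 did not pass. Tbx21 had 13.4, 18.9 and 9.04 CPM with CD103 DC and 14.2, 23.5 and 20.1 CPM with CD8a DC (adjusted p = 0.449), Eomes 75.2, 89.2 and 59.8 CPM with CD103 DC and 87.3, 94.2 and 99.7 CPM with CD8a DC (adjusted p = 0.288), and Tcf7 1926, 1895 and 2170 CPM with CD103 DC and 2202, 2516 and 1935 CPM with CD8a DC (adjusted p = 0.445). The values of the 2 groups overlapped for all 3 genes. Of the transcription factors 3, 2 and 1 rose and 3, 1 and 1 fell with CD103-1, CD103-2 and CD103-3 left out in turn; with CD8a-1 left out 3 rose and 3 fell, and with CD8a-3 left out 7 rose and 6 fell.

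Among 31 genes of naive, quiescent and memory cells 3 rose and 2 fell, against 0.891% and 0.548% of all genes tested. Klf2, which drives exit from lymph nodes, had 12.6, 18.0 and 14.1 CPM with CD103 DC and 34.9, 27.3 and 30.0 CPM with CD8a DC (fell by 1.11, SE 0.23, adjusted p = 0.0307). Txnip, an inhibitor of glucose uptake, had 176, 178 and 197 CPM with CD103 DC and 116, 89.1 and 90.8 CPM with CD8a DC (log2 fold change 0.85, SE 0.13, adjusted p = 0.00636). Cdkn1a (p21), a cyclin kinase inhibitor, rose by 1.57, and Cdkn2d (p19), another, fell by 0.63. Itgae, which encodes CD103 itself in T cells, had 396, 388 and 448 CPM with CD103 DC and 414, 599 and 194 CPM with CD8a DC and did not pass (adjusted p = 0.912). Of the naive and memory list 1, 1 and 0 rose and 0 fell with CD103-1, CD103-2 and CD103-3 left out in turn, 1 rose and 0 fell with CD8a-1 left out, and 3 rose and 5 fell with CD8a-3 left out. With CD11b-2 left out 2 rose and 2 fell, and with CD11b-3 left out 2 rose and 1 fell.

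Several of the genes with the smallest adjusted p lay outside these lists. Sema6d (ENSMUSG00000027200; chromosome 2, 124089969 to 124667770), a transmembrane semaphorin, had 155, 140 and 201.5 CPM with CD103 DC, against 28.5, 32.1 and 13.9 CPM with CD8a DC (log2 fold change 2.75, SE 0.27, adjusted p = 0.000456). The CD11b DC libraries, at 32.7 and 26.0 CPM, were in or just above the range of the CD8a DC group. Sema4a, a semaphorin that T cells and DC use in costimulation, had 116, 143 and 140 CPM with CD103 DC and 65.9, 60.6 and 53.5 CPM with CD8a DC (log2 fold change 1.09, SE 0.14, adjusted p = 0.0031). Adgrg5, an adhesion G protein coupled receptor, had 60.8, 64.1 and 61.0 CPM with CD103 DC and 16.1, 14.5 and 12.4 CPM with CD8a DC (log2 fold change 2.06, SE 0.20, adjusted p = 0.000456); its replicates agreed closely within each group.

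Macf1, a very large linker of actin and microtubules, had 2394, 2077 and 2365 CPM with CD103 DC, against 1253, 1152 and 1082 CPM with CD8a DC (log2 fold change 0.91, SE 0.09, adjusted p = 0.000456). Rnf213, an interferon-inducible ubiquitin ligase, had 498, 453 and 537 CPM with CD103 DC and 196, 198 and 137 CPM with CD8a DC (log2 fold change 1.45, SE 0.15, adjusted p = 0.00062). Sdc4, the heparan sulfate proteoglycan syndecan 4, had 13.7, 12.6 and 15.6 CPM with CD103 DC and 1.35, 1.05 and 1.86 CPM with CD8a DC (log2 fold change 3.23, SE 0.42, adjusted p = 0.0031). In the CD11b DC libraries Macf1 and Rnf213 were at or above the CD103 DC level, at 2507 and 2651 CPM and at 538 and 698 CPM, whereas Sdc4, at 10.5 and 6.05 CPM, lay between the groups. Among the falls, Adam19, a metalloprotease, had 161, 120 and 116 CPM with CD103 DC and 289, 262 and 275 CPM with CD8a DC (fell by 1.13, SE 0.14, adjusted p = 0.00241), Cd55, a complement inhibitor, fell by 1.03 and Slc43a1, an amino acid transporter, by 1.53. All of these genes kept their call without each library.

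Among 28 lipid and orphan G protein coupled receptors and related receptors 3 rose and 2 fell. The shares of all genes tested, here and for the cytokine list below, were 0.891% and 0.548%. Gpr55, a lipid receptor, had 136, 126 and 183 CPM with CD103 DC and 60.8, 69.3 and 57.0 CPM with CD8a DC (log2 fold change 1.17, SE 0.16, adjusted p = 0.00405), and kept its call without each library. Npr1, the natriuretic peptide receptor, had 6.16, 5.58 and 7.35 CPM with CD103 DC and 0.246, 0.0452 and 0.266 CPM with CD8a DC (log2 fold change 4.88, SE 0.77, adjusted p = 0.00709). Ptger4, the prostaglandin E2 receptor EP4, rose by 1.16 and P2rx4, an ATP-gated channel, fell by 1.13. Of 20 cytokine and chemokine genes 1 rose, Penk, which encodes enkephalin, at 6.42, 5.48 and 4.72 CPM with CD103 DC and 0.120, 0 and 0.214 CPM with CD8a DC (log2 fold change 5.33, SE 0.90, adjusted p = 0.00989; 4.66 without CD8a-2). Other low genes with large log2 fold changes were Mreg (3.06), Ankrd33b (3.33) and Flrt3 (4.14, but 3.07 and 5.47 without CD8a-3 and CD8a-2). Flrt3 was not called by edgeR (log2 fold change 2.90, adjusted p = 0.12) or DESeq2 (adjusted p = 0.124). Nid1 fell, but its CD8a DC libraries stood at 0.492, 12.8 and 1.81 CPM, and its log2 fold change of -5.18 was -3.93 without CD8a-2 and -6.24 without CD8a-1. Of the G protein coupled receptor list 1 rose with any 1 of the CD103 DC libraries left out, 0 fell with any 1 of these, CD8a-1 or a CD11b DC library left out or in the fit of only 6 libraries, 2 rose and 1 fell with CD8a-2 left out, and 4 fell with CD8a-3 left out; with scaling by library total 1 fell. Penk lost its call with any 1 of the CD103 DC libraries left out, and 2 cytokine genes rose with CD8a-2 left out and 3 with CD8a-3 left out.

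**Figure D4:**
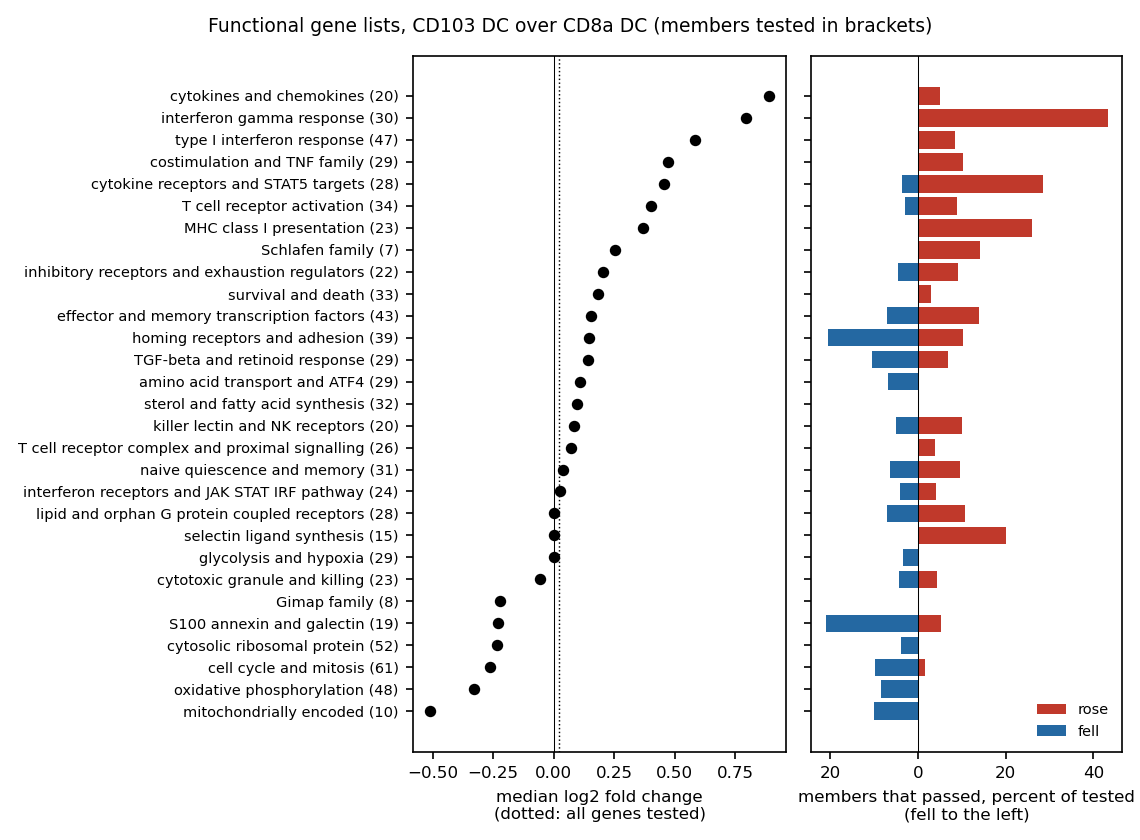
The left panel gives the median log2 fold change of CD103 DC over CD8a DC for 29 functional lists, with members tested in brackets and the median of all genes dotted; the right panel gives the percent of tested members that rose (red) or fell (blue). Rises were most frequent among interferon gamma genes (13 of 30), and the respiratory chain lists at the bottom had falls only.

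Most genes of proliferation and of mitochondria had slightly lower levels with CD103 DC, and few of them passed. Of 61 cell cycle genes tested 1 rose and 6 fell, and 54 were below 0 (median -0.26). Over all genes tested 0.891% rose, 0.548% fell and 9013 of 18971 were below 0. Ccnb2, cyclin B2 of mitosis, had 135, 172 and 153 CPM with CD103 DC and 307, 218 and 202 CPM with CD8a DC (fell by 0.70, SE 0.16, adjusted p = 0.0406). Mki67, the proliferation marker Ki-67, had 3306, 3226 and 3177 CPM with CD103 DC and 3932, 3610 and 4368 CPM with CD8a DC (fell by 0.35, SE 0.08, adjusted p = 0.0484). Birc5, Cenpa, E2f2 and Tubb2a were the others that fell. Ccnd2, cyclin D2, which links growth signals to entry into the cycle, moved the other way, with 474, 437 and 481 CPM with CD103 DC and 294, 241 and 234 CPM with CD8a DC (log2 fold change 0.80, SE 0.11, adjusted p = 0.00405). With any 1 of the CD103 DC libraries or CD8a-1 left out 0 cell cycle genes fell, while Ccnd2 rose in all 8 fits; with either CD11b DC library left out 2 fell, and with scaling by library total 3 fell.

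Of 48 nuclear genes of oxidative phosphorylation 0 rose and 4 fell, and 44 were below 0 (median -0.33). Over all genes tested 0.548% fell and 9013 of 18971 were below 0. All 4 encode subunits of cytochrome c oxidase. Cox6a1 had 137, 161 and 141 CPM with CD103 DC and 213, 241 and 265 CPM with CD8a DC (fell by 0.77, SE 0.13, adjusted p = 0.00911), and Cox6c, Cox8a and Cox4i1 fell by 0.65, 0.64 and 0.56; the call of Cox8a (adjusted p = 0.0484) held in 0 of the 8 fits that left out a library (adjusted p 0.0588 to 0.218), and that of Cox6c in 1. Of these genes 0, 1 and 0 fell with CD103-1, CD103-2 and CD103-3 left out in turn, and 2 fell with CD8a-1, CD8a-2, CD11b-2 or CD11b-3 left out. Of 52 cytosolic ribosomal protein genes 2 fell, Rps2 and Rpl8 (list median -0.24), and with scaling by library total 0 passed. Among all 2307 genes with a mean of at least 100 CPM 53 fell. With any 1 of the CD103 DC or CD11b DC libraries or CD8a-1 left out 0 ribosomal protein genes passed, 1 fell with CD8a-2 left out and 4 fell with CD8a-3 left out. Of 15 listed mitochondrially encoded genes 5 were listed at 0 in all 6 libraries although every cell uses them, so the mitochondrial share given above does not cover them, and mt-Nd1 was the 1 of 10 tested that fell, by 0.54. Of these 10 genes 6 fell with CD8a-3 left out, 2 with CD8a-1 left out and 0 with any 1 of the other 6 libraries left out. The fold change also moved with transcript length: for protein-coding genes with an annotated exon length of 1 to 2 kb the median was -0.14, and for those over 8 kb it was 0.09. The median exon length was 5335 bases for genes that rose, 3511.5 for those that fell and 3230 for those that did not pass. With a length trend removed from each library 127 genes rose and 116 fell. In that fit 11 interferon gamma, 3 type I interferon, 5 class I, 6 cytokine receptor and 2 selectin ligand genes rose. The homing list kept 4 that rose and 8 that fell, and 4 oxidative phosphorylation genes and 6 cell cycle genes fell.

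Markers of cells other than CD8+ T cells were checked beside these results. T cell identity genes summed to 9058 to 9147 CPM with CD103 DC and 7883 to 9016 CPM with CD8a DC, and Cd8a had 1982, 2081 and 1968 CPM with CD103 DC and 1501, 1652 and 1373 CPM with CD8a DC without passing (adjusted p = 0.0881). Of the 12 genes set down as defining DC, 4 rose and 0 fell. Ccl22, a ligand of CCR4, made up much of the sum, with 144, 144 and 169 CPM with CD103 DC and 62.4, 86.1 and 31.7 CPM with CD8a DC. Cd83 (log2 fold change 1.39), Flt3 (1.78) and H2-Aa (2.37) were the others, the last at 21.8, 15.4 and 26.6 CPM with CD103 DC and 3.19, 4.14 and 4.20 CPM with CD8a DC. Over the longer list of 23 DC genes tested 5 rose and 0 fell, and 11 were higher in all 3 CD103 DC libraries than in all 3 CD8a DC libraries, against 0 lower. Of all genes tested 8.77% were higher and 7.72% lower in this way. Cd74, the invariant chain of class II molecules, was the fifth to rise, with 52.5, 47.2 and 57.4 CPM with CD103 DC and 8.29, 35.2 and 10.03 CPM with CD8a DC, but was not called by edgeR (adjusted p = 0.122) or DESeq2 (adjusted p = 0.144). H2-Eb1, a class II chain, had 2.09, 4.25 and 1.34 CPM with CD103 DC and 0.246, 0 and 0.266 CPM with CD8a DC without passing (adjusted p = 0.0682). The costimulatory ligands Cd86 and Cd80, the actin bundler Fscn1, the transcription factor Batf3 and the cytokine subunit Il12b were also higher without overlap and did not pass (adjusted p 0.0563 to 0.443). Other members were low or overlapped. Itgax, which encodes CD11c, had 0, 0 and 0 CPM with CD103 DC and 0, 0 and 0.637 CPM with CD8a DC. Clec9a and Xcr1, which mark the cDC1 lineage, were low in every library of both groups. Clec9a had 0.206, 0.307 and 0 CPM with CD103 DC, against 1.84, 4.51 and 0.104 CPM with CD8a DC. Xcr1 had 0.471, 1.49 and 2.48 CPM with CD103 DC and 0.613, 0 and 0.423 CPM with CD8a DC. H2-Ab1, the partner of H2-Aa in the class II molecule, had 1.98, 3.07 and 2.33 CPM with CD103 DC and 2.46, 4.05 and 2.60 CPM with CD8a DC. Of the 12 defining genes 0, 1 and 0 rose with CD103-1, CD103-2 and CD103-3 left out in turn, and 2 rose with CD8a-1 left out.

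Zbtb7b, which specifies helper T cells, rose, at 13.2, 14.9 and 10.4 CPM with CD103 DC and 3.31, 3.37 and 2.23 CPM with CD8a DC (log2 fold change 2.05, SE 0.42, adjusted p = 0.0282). The 4 CD4 and regulatory T cell genes summed to 29.1 to 32.9 CPM with CD103 DC and 7.42 to 13.5 CPM with CD8a DC. Of these genes 3 were higher without overlap. Cd4 itself overlapped, at 3.66, 3.17 and 6.61 CPM with CD103 DC and 0.859, 2.41 and 7.27 CPM with CD8a DC. Cd22 and Ighd were the B cell list members that rose, while Ighm, at 928 to 1051 CPM with CD103 DC and 932 to 1208 CPM with CD8a DC, did not pass. With CD103-1 left out 1 of the B cell genes rose, and 0 with CD103-2 or CD103-3 left out, and the Zbtb7b call was lost with any 1 of the CD103 DC libraries or CD8a-1 left out. Natural killer cell genes summed to 64.2 to 92.6 CPM with CD103 DC and 93.0 to 103 CPM with CD8a DC. This sum was nearly all Eomes, given above among the T cell fate regulators, at 59.8 to 89.2 and 87.3 to 99.7 CPM. Macrophage genes summed to 56.9 to 73.3 CPM with CD103 DC and 39.0 to 77.9 CPM with CD8a DC. Most of that sum was Ly6c2 and Cd68, while Adgre1, Mertk, Fcgr1, C1qc, C1qb and Cd14 had 0 reads in all 6 libraries. The neutrophil list and the red blood cell list each summed to at most 4.02 CPM in each of the 6 libraries, and the stromal list was nearly all Pecam1, which T cells also express. The part of these transcripts in the results above was not tested.

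**Figure D5:**
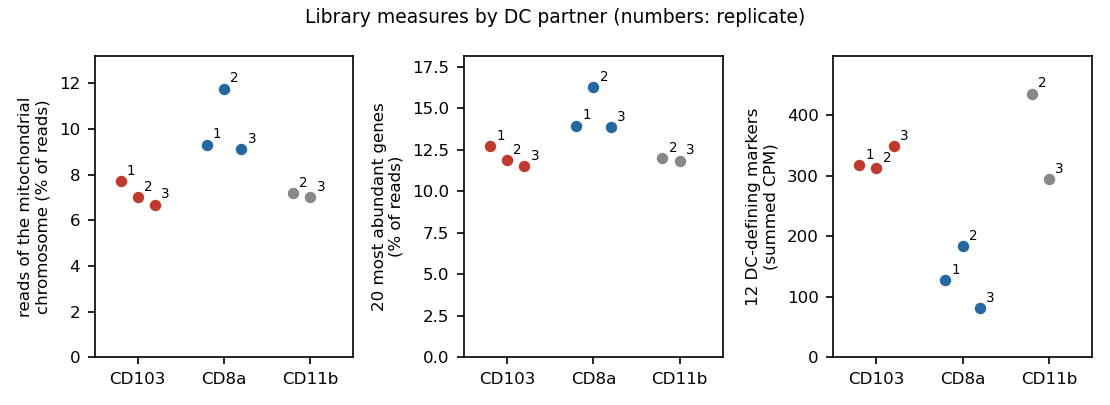
For each library (points, numbered by replicate) the panels give the percent of reads from the mitochondrial chromosome, the percent of reads in the 20 most abundant genes and the summed CPM of 12 DC-defining markers, by DC partner. CD8a-2 has the highest value in the first 2 panels (11.8% and 16.3%), and the 3 CD103 DC libraries lie above the CD8a DC libraries in DC markers.

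Effector genes listed with the S100, annexin and galectin families were lower in part, with 4 of 19 tested that fell and 1 that rose. For this list and those below, the shares of all genes tested were 0.548% that fell and 0.891% that rose. The list also holds genes outside these families, Plac8, Crip1 and Ahnak among them. Plac8 had 9.08, 8.60 and 5.21 CPM with CD103 DC, against 33.8, 21.6 and 36.8 CPM with CD8a DC (fell by 2.06, SE 0.31, adjusted p = 0.00569) and kept its call without each library. Crip1, S100a10 and Lgals1 (galectin 1) fell by 0.86, 0.70 and 0.56, and Ahnak, a giant scaffold protein that binds S100A10, rose by 0.58. Among metabolic lists 1 of 29 glycolysis and hypoxia genes fell by limma-trend. It was Car2, a carbonic anhydrase, with 3.70, 0.663 and 0.842 CPM with CD103 DC and 15.5, 10.97 and 6.16 CPM with CD8a DC (log2 fold change -2.98, adjusted p = 0.0367). Its call was lost by edgeR (adjusted p = 0.0605) and held in 2 of the 8 fits that left out a library, in which the log2 fold change was -3.74 to -2.52. Of 29 genes listed under amino acid transport and ATF4 2 fell, the amino acid transporter Slc43a1 and Slco4a1, an organic anion transporter. Of that list 1 fell with any 1 of the CD103 DC libraries or CD8a-1 left out. Of 33 survival and death genes 1 rose (against 0.891% of all genes tested). It was Cdkn1a, a call that was lost with any 1 of the CD103 DC libraries or CD8a-1 left out. Of the S100, annexin and galectin list 1, 2 and 1 fell with CD103-1, CD103-2 and CD103-3 left out in turn and 1 fell with CD8a-1 left out. The call of Ahnak was lost with any 1 of the CD103 DC libraries or CD8a-2 left out, and with the length trend removed.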

How the data were processed

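RNA sequencing of 8 libraries of sorted OT-I CD8+ T cells was analysed. Reads were aligned with STAR 2.4.2a to GRCm38, and DESeq2 was used, per the submitters' processing notes; how reads were counted, on which annotation and with which strand setting is not given in the sources used here. The authors deposited DESeq2-type normalized counts (a signal scaled between libraries), variance-stabilized log2 values, and for each comparison a log2 fold change, a fold ratio, a raw p-value and its adjusted form, with the GC percent of each gene, per the file headers; the stabilized values and GC were not used. In the deposited normalized counts 100% of values came out as whole reads within 0.1 of a read, in all 8 libraries. CPM were computed from the normalized counts, scaled to a total of 1000000 in each library.

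The main test was limma's trend method (version 3.58.1, under R 4.3.3), applied to log2(normalized count + 1) over 18971 genes with a mean of at least 1, with 3 group means fitted over 8 libraries (5 residual degrees of freedom), two-sided, with Benjamini-Hochberg adjustment. edgeR 4.0.16 (254 of 14931 genes) and DESeq2 1.42.0 were run on the recovered reads. The authors' deposited table gave 743 genes at an adjusted p under 0.05, of which 242 were among the 273. Alternatives covered the pseudocount, filter, scaling, exon length, array weights, a replicate block and each library left out; the exon length trend used GENCODE M21.

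Named genes were, in each direction, the 12 with the largest fold and the 12 with the smallest adjusted p (at least 5 CPM in the higher group, no overlap, no predicted genes), list members that passed, 12 preset genes and marker genes. Other members that did not pass were named after their values were seen. Members, lists and rules were chosen with earlier results of these data known. A few genes that enter the counts are not reported here by name.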

Additional observations from a re-analysis of the deposited data

How the results depend on the processing

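The 273 genes that passed (169 higher, 104 lower with CD103 DC) became 831 (455 and 376) with DESeq2, 181 (63 lower) in a fit to the 6 libraries of both groups alone, and 159 (100 and 59) with no filter on low values. With 1 library left out the count ranged from 47 to 480, the higher genes from 27 to 280 and the lower genes from 18 to 200. The edgeR count ranged from 60 to 479 in the same way. Genes with no spread within groups could not be fitted and were set aside, 65 and 68 of them without CD11b-2 and CD11b-3. A replicate block gave 181 genes (59 lower). The deviations of same-numbered libraries of both groups from their group means had correlations of 0.00085, -0.029 and -0.031. Deviations from a mean of 3 libraries are tied to each other. These values therefore cannot tell whether same-numbered libraries shared a culture or an animal. The share of passing genes that were higher was 61.9%, but 73.9% with scaling by library total and 52.3% with an exon length trend removed. All 119 named genes that passed, other than markers, kept their sign in every alternative. Of these, 35 to 39 passed without 1 CD103 DC library, 65 to 113 without 1 CD8a DC library, 111 by edgeR and 117 by DESeq2. Calls were fewer at low depth: of 6509 genes with a mean under 1 CPM 7 rose and 2 fell, and of 2307 with at least 100 CPM 52 rose and 53 fell.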
